A study of Homo sapiens with 24 samples.

Results

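Peaks of Ago2 binding that hold a seed match to miR-18a-5p and its family were examined for their response to arsenite. Membership rested on the label alone, though the set was chosen with earlier results of these data known. A peak was taken where the authors' list of 7-nucleotide seed matches named hsa-miR-18a-5p, in any part of a transcript. This gave 211 of 24041 peaks, in 198 of 6088 annotated genes. The study used 293S cells, an adherent line of human embryonic kidney origin, either untreated or exposed to 1 mM sodium arsenite over 30 min. Ago2 CLIP, RNA-seq and a second Ago2 CLIP fraction, the LO band from which miRNAs were counted, were each made from 4 untreated and 4 treated biological replicates, 24 samples in all. CLIP crosslinks Ago2 to the RNA it touches before immunoprecipitation. No transgene or deletion is given in the labels, and all samples come from the 1 cell line.

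miRNAs guide Ago2 to messenger RNAs mainly through their seed, the bases near the 5' end that pair with a complementary site, usually in the 3' untranslated region (3'UTR). Bound Ago2 recruits TNRC6 proteins and deadenylases, which shorten the poly(A) tail and lower translation. miR-18a is made from the same primary transcript as miR-17, miR-19a, miR-20a, miR-19b-1 and miR-92a-1, the miR-17-92 cluster, which is known for promoting proliferation. miR-18b comes from the related cluster on the X chromosome. Arsenite is an oxidative stressor that stops most translation initiation and drives mRNAs into stress granules.

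The sequences below show which letters define the set, with bases 2 to 8, the seed, in capitals. They are RefSeq sequences on GRCh38.p14, 5' to 3'. The miR-18a-5p, miR-18b-5p and miR-4735-3p lines are the family named by the authors, and the other lines are the cluster mates and the opposite arm of the same hairpin.
miR-18a-5p: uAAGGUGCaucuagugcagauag
miR-18b-5p: uAAGGUGCaucuagugcaguuag
miR-4735-3p: aAAGGUGCucaaauuagacau
miR-17-5p: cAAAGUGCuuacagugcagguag
miR-20a-5p: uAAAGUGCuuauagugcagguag
miR-19a-3p: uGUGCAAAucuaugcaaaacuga
miR-92a-3p: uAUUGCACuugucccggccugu
miR-18a-3p: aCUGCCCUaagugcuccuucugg

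miR-18a-5p lies on chromosome 13, 91350756 to 91350778 of that build, between miR-17-5p and miR-19a-3p, and miR-18b-5p lies on the X chromosome, 134170084 to 134170106. The full sequences of miR-18a-5p and miR-18b-5p differ by 1 base, A20U, counted from the 5' end of miR-18a-5p. In the seed, miR-17-5p and miR-20a-5p differ from miR-18a-5p by 1 substitution, G4A. The DNA letters complementary to the seed are GCACCTT for the miR-18 family and GCACTTT for miR-17-5p. The authors' families share bases 2 to 8 in 25 of the 27 families with at least 2 RefSeq sequences, and bases 1 to 7 in only 13. Peak sequences were not analysed here, so the position of the match within a peak is not given.

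miR-18a supplied nearly all of the family's reads on Ago2. In the authors' deposited table, miR-18a-5p had a mean of 43912 size-factor normalized counts in untreated cells and 51226 with arsenite. That placed it at rank 34 of 1000 mature miRNAs, with 0.239% of their summed means in untreated cells in the authors' deposited table. miR-18b-5p had means of 733 and 908 in the authors' deposited table, and miR-4735-3p was not listed. Both 5p miRNAs were thus listed slightly higher with arsenite. The authors' deposited table gave a log2 ratio of 0.22 for miR-18a-5p, with a DESeq p of 0.577, and of 0.31 for miR-18b-5p, with a DESeq p of 0.298. After adjustment both DESeq p-values in the authors' deposited table were 1. Neither passed the threshold of 0.05, and the spread between replicates was not in the tables used. Across the 1213 entries of the authors' deposited table, 24 (1.98%) passed 0.05 by DESeq before adjustment and 0 (0%) after it.

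The opposite arm, miR-18a-3p, was listed lower with arsenite. Its means in the authors' deposited table were 26880 untreated and 18110 treated, a log2 ratio of -0.57. Its DESeq p in the authors' deposited table was 0.0113 before adjustment and 1 after it. miR-18b-3p had means of 465 and 432 in the authors' deposited table. The ratio of miR-18a-5p to miR-18a-3p, computed from these means, was 1.63 in untreated and 2.83 in treated cells. For miR-18b the ratio of 5p to 3p was 1.58 and 2.10, and for miR-20a it was 43.5 and 37.9. The arm ratios of miR-17 (5p to 3p) and miR-19a (3p to 5p) were also higher with arsenite, by 0.15 and 0.09 in log2. The log2 changes of the other ratios were 0.79 for miR-18a, 0.41 for miR-18b and -0.20 for miR-20a. The change of the arm ratio was not tested, since a ratio of 2 means has no replicate values here.

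The seed families of the cluster mates were more abundant. The miR-17 and miR-25/92 sums also take in members from outside the miR-17-92 cluster and its relative on the X chromosome, such as miR-93-5p and miR-25-3p. The summed means of miR-18a-5p and miR-18b-5p were 44645 untreated and 52134 with arsenite, from the authors' deposited table. The 6 miR-17 family members counted (miR-17-5p, miR-20a-5p, miR-20b-5p, miR-93-5p, miR-106a-5p and miR-106b-5p) summed to 23.0 times the miR-18 value in untreated cells and 19.5 times in treated cells. miR-19a-3p and miR-19b-3p together reached 37.7 and 29.4 times. The 5 members of the miR-25/92 family (miR-25-3p, miR-32-5p, miR-92a-3p, miR-92b-3p and miR-363-3p) reached 9.11 and 8.43 times. The log2 ratios of the summed means were 0.22 for miR-18, -0.01 for miR-17, -0.13 for miR-19 and 0.11 for miR-25/92, from the authors' deposited table.

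**Figure D1:**
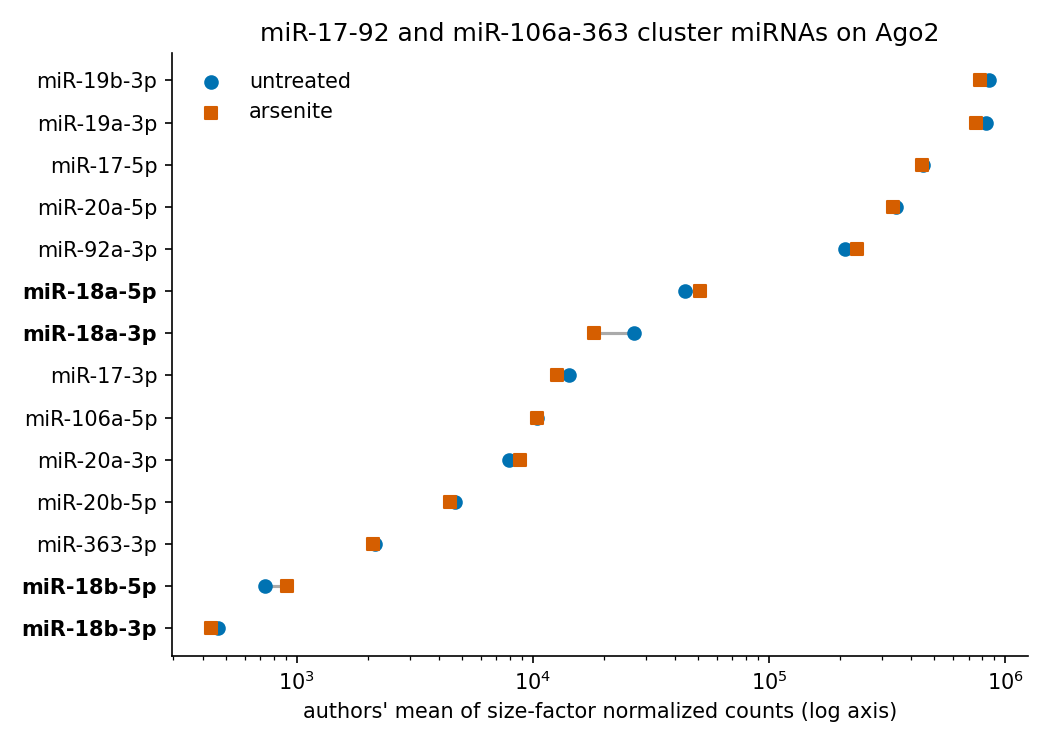
Authors' means of size-factor normalized counts on Ago2 (log axis) for 14 mature miRNAs of both clusters, untreated (circles) and with arsenite (squares), with grey lines joining the 2 means. miR-18a-5p moved from 43912 to 51226 and miR-18a-3p from 26880 to 18110, and all mates with higher means stayed closer together on the log axis; no error bars are drawn because replicate values were not in the table used.

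Most peaks with a miR-18 family seed carried more normalized Ago2 signal with arsenite. Each peak has 1 log average and 1 log ratio of arsenite over untreated signal, the authors' values over all replicates. The sources used here do not state their log base or normalizer, so no fold is given, and more Ago2 binding cannot be told apart from more of the transcript. With no replicate values there is no test of any peak or group, and what follows describes this table. The median log ratio was 1.41, with quartiles of 0.54 and 2.14 and a range from -1.55 to 3.87. An order-statistic 95% interval of the median, which treats peaks as independent, ran from 1.11 to 1.61. Log ratios lay above 0 in 179 of the 211 peaks (84.8%), where 70.3% of all peaks did. They lay above 1 in 139 (65.9%), against 39.1% of all peaks, and below -1 in 6, against 7.43% of all peaks.

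The reference groups were lower. The 16460 peaks with no listed seed had a median log ratio of 0.48, so the miR-18 peaks lay 0.93 above them. The 7370 peaks with another listed seed but no miR-18 seed had a median of 1.05. Among the 50 families, the miR-18 family came 12th by median log ratio and 13th by number of peaks. Its neighbours in the order of medians were let-7 with 1.42 and miR-196 with 1.39, values that lie well inside the interval of the miR-18 median. The cluster mates had medians of 1.67 for the miR-17 family, 1.57 for miR-19 and 1.72 for miR-25/92. Of these, the miR-19 value also lies inside the interval of the miR-18 median, and the others lie above it. That interval treats peaks as independent and leaves out the spread of the other medians, so the order of families was not tested. For the opposite arm, miR-18a-3p, the 162 seed peaks gave a median of 0.05, and 51.2% of these lay above 0. The seeds of both arms were listed in 2 peaks.

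**Figure D2:**
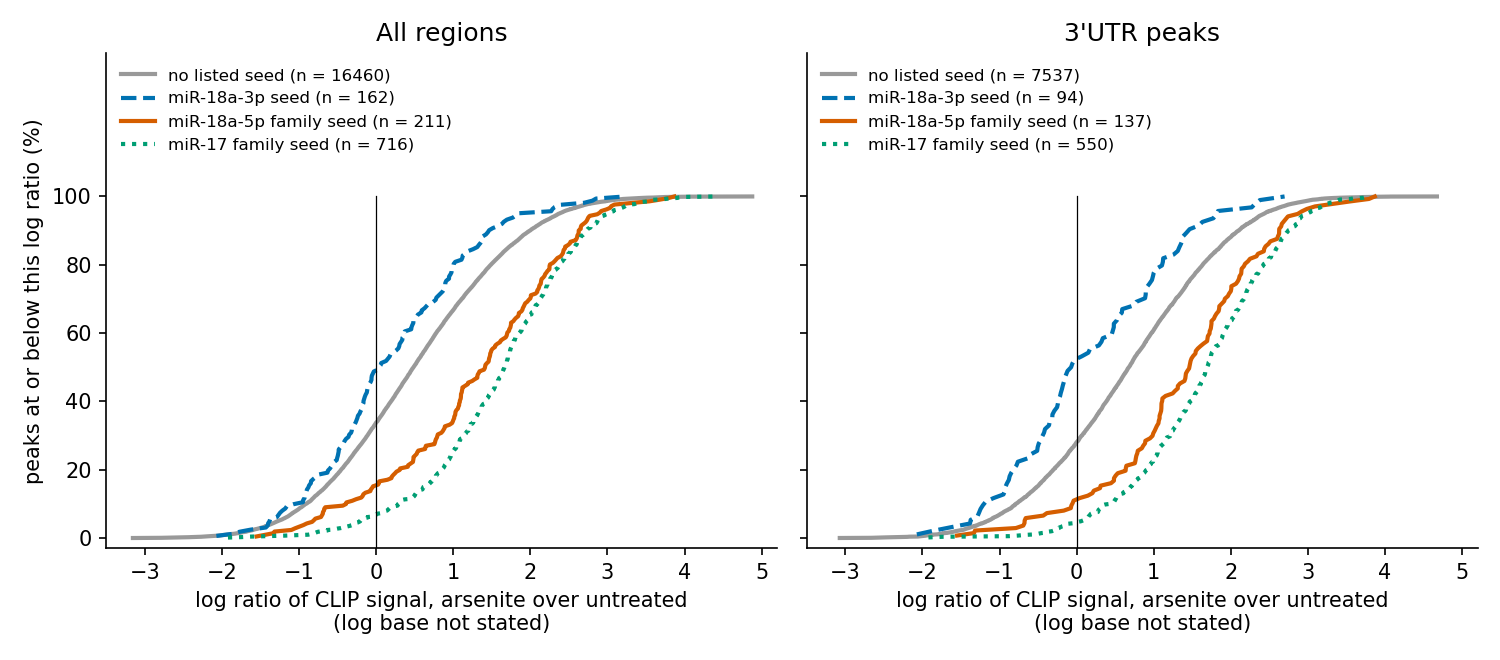
Cumulative share of peaks (percent, vertical) at or below each log ratio of CLIP signal, arsenite over untreated (horizontal, log base not stated), for all regions and for 3'UTR peaks. The curve of the miR-18a-5p family (median 1.41 in all regions, 1.47 in 3'UTRs) lies to the right of that of peaks with no listed seed (0.48 and 0.68) and, over most of its range, to the left of that of the miR-17 family (1.67 and 1.70), while the miR-18a-3p curve lies to the left (0.05 and -0.06).

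Log ratios of these peaks were lower in coding sequence (CDS) than in 3'UTRs and lowest in noncoding exons, as in the whole table. 3'UTRs held 137 of the miR-18 peaks (64.9%), against 51.0% of all peaks, and coding sequence held 59, against 34.5% of all peaks. In 3'UTRs the median log ratio was 1.47 and 122 of 137 lay above 0 (89.1%), where 76.2% of all 3'UTR peaks did. The 3'UTR peaks with no listed seed had a median of 0.68, which is 0.79 lower. In CDS the median was 1.19, and 49 of 59 lay above 0 (83.1%, against 68.4% of all CDS peaks). CDS peaks with no listed seed had a median of 0.45.

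The 7 peaks in 5'UTRs had a median of 1.90, and 6 of them lay above 0, where 60.8% of all 5'UTR peaks did. The highest was in FAM190B with 2.77 (chromosome 10, 86130784 to 86130824), followed by IBTK with 2.52 and MAPK6, an atypical MAP kinase, with 2.15. ZDHHC7, a palmitoyltransferase, had 1.90 and the kinase gene PEAK1 had 1.48. STK11, the tumour suppressor kinase LKB1, had 0.04, and WEE1, a kinase that holds back mitosis, had -0.70. The other 5'UTR peaks had a median of 0.24 where no seed was listed and 0.37 where another one was.

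In noncoding exons log ratios were low with or without the seed. Only 2 of 8 miR-18 peaks there lay above 0, where 42.6% of all noncoding exon peaks did, and the median was -0.22. The 1034 noncoding exon peaks with no listed seed also had a median of -0.22. XIST, the RNA that coats the inactive X chromosome, held 5 of the 8, the only gene with more than 2. Its log ratios were -0.14, -0.17, -0.26, -0.69 and -0.94, all within chromosome X, 73064190 to 73066179. The log averages of these peaks, -9.79 to -8.82, were the 5 lowest of the set. XIST carried 309 peaks in all, with a median of -0.42, and its 240 peaks without a listed seed had a median of -0.51. SNHG15, a small nucleolar RNA host gene, had 2.73 at its one miR-18 peak. The lincRNA models TCONS_00017361 and TCONS_00023383 had 0.02 and -0.998.

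**Figure D3:**
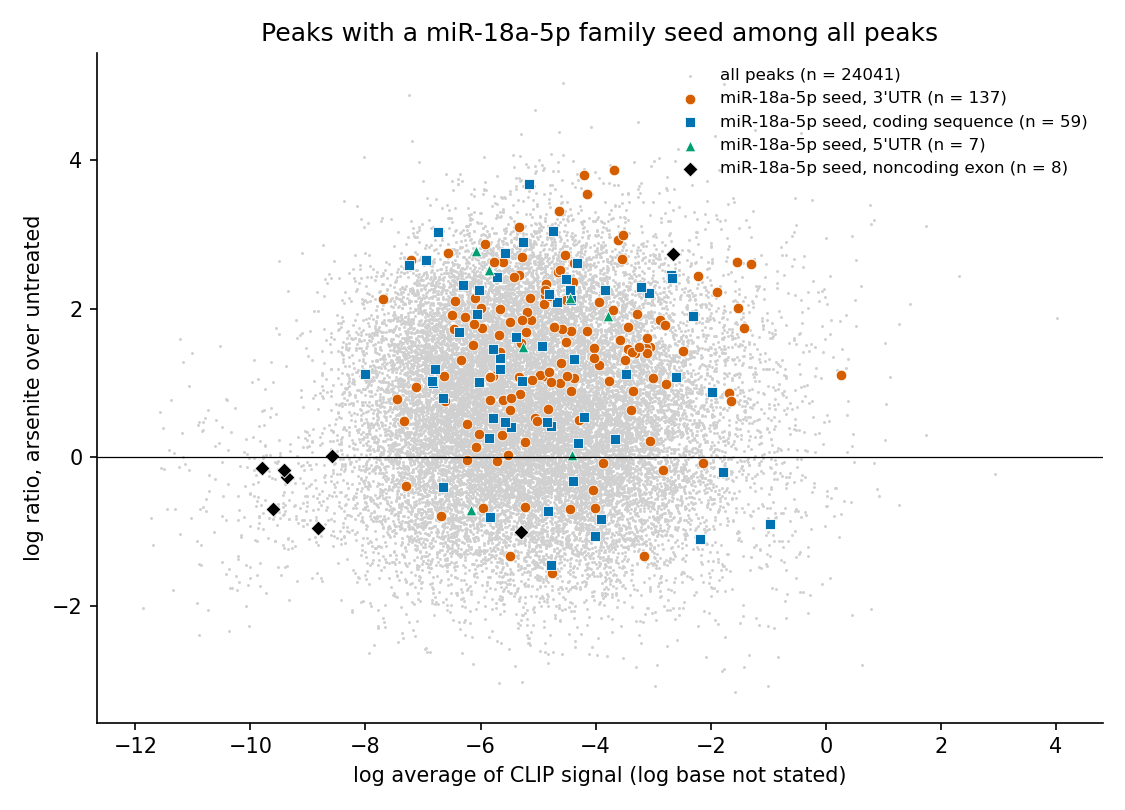
Log ratio (vertical, arsenite over untreated) against log average (horizontal) of CLIP signal, with all 24041 peaks in grey and the 211 miR-18 family peaks by region. Of the 3'UTR peaks (circles), 122 of 137 lie above 0, and the noncoding exon peaks (diamonds) at log averages below -8 all lie at or below 0.02.

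The miR-18 peaks had higher medians than peaks with no listed seed at every level of signal. With the peaks of the whole table divided into 4 equal bins by log average, the miR-18 medians were 1.06, 1.33, 1.55 and 1.46 from the weakest bin to the strongest, over 32, 61, 59 and 59 peaks. In the same bins the peaks with no listed seed had medians of 0.49, 0.66, 0.46 and 0.33. The miR-18 peaks were also somewhat stronger as a group, with a median log average of -4.87 against -5.29 for peaks with no listed seed. The median length was 50 nucleotides in both groups.

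Peaks of the same transcript share its abundance, so each gene's miR-18 peaks were set against its peaks with no listed seed in the same region. Pairing was by gene, and paired peaks may lie on different transcripts of it. This comparison was added after the data had been seen, and was possible for 124 pairs of gene and region. The median log ratio was 1.34 with and 0.64 without the seed, and the median difference within pairs was 0.36 (quartiles -0.35 and 1.27). The peak with the seed was the higher one in 81 of 124 pairs (65.3%). In 3'UTRs the difference was 0.39 and 61 of 86 pairs (70.9%) were higher. In CDS the difference was 0.48, and 18 of 32 pairs (56.3%) were higher. The few pairs elsewhere went the other way, with a difference of -0.46 in 5'UTRs and -0.43 in noncoding exons, and 1 of 3 pairs higher in each. With peaks in the upper 75% of log averages only, the difference over 88 pairs was 0.19. For peaks with the miR-18 seed alone it was 0.22 over 102 pairs, of which 60 (58.8%) were higher. In CDS alone, the latter change gave 0.08, with 14 of 28 pairs higher.

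The cluster mates gave larger values of the same measure. It was 0.61 for the miR-17 family (382 pairs), 0.68 for miR-19 (275 pairs) and 0.76 for miR-25/92 (226 pairs). Peaks with any other listed seed gave 0.25 over 2610 pairs, of which 60.2% were higher. Both values were below those of all miR-18 peaks, 0.36 and 65.3%, and slightly above those of peaks with the miR-18 seed alone, 0.22 and 58.8%. The group with other seeds was not limited to peaks with a sole family. Seed peaks of miR-18a-3p gave 0.08 over 123 pairs. Differences between families were not tested. Among single genes, TRAPPC10, a subunit of a vesicle tethering complex, had 2.90 at its CDS peak with the seed and -0.63 at the one without. POLR2D, an RNA polymerase II subunit, showed the opposite order in its 3'UTR, with -1.55 at the peak with the seed and a median of 0.61 over 3 peaks without.

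**Figure D4:**
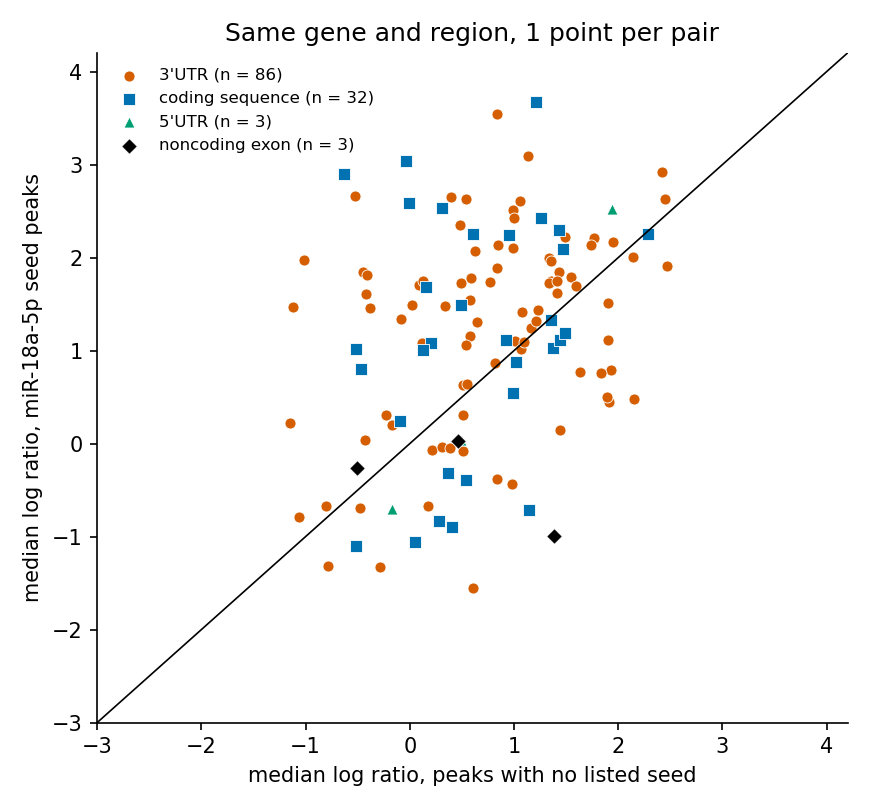
Median log ratio of miR-18 family peaks (vertical) against that of peaks with no listed seed (horizontal) in the same gene and region, 1 point per pair, with the line of equal values. Of 124 pairs, 81 lie above the line, among them 61 of the 86 3'UTR pairs.

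Matches to other families were listed in part of the set, and those peaks had the higher median. For 165 of the 211 peaks miR-18 was the sole listed family, 41 matched 2 families and 5 matched 3. Peaks with the miR-18 seed alone had a median of 1.25, with 136 of 165 above 0 (82.4%). The 46 peaks with a further family had a median of 1.73, with 43 above 0 (93.5%). By the median of peaks with a sole family, miR-18 came 13th of the 46 families with at least 20 such peaks.

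The most frequent partner was miR-19, whose seed was listed in 556 of all 24041 peaks and in 12 of the 211 miR-18 peaks. Those 12 peaks all lay in 3'UTRs and above 0, with a median of 1.92. Of all 3'UTR peaks 76.2% lay above 0, and of the 433 3'UTR peaks with a miR-19 seed 94.0% did, so the count is near the share for miR-19 peaks. They run from 0.85 in FRS2, an adaptor of fibroblast growth factor receptors, to 3.87 in KIT, the stem cell factor receptor. TGFBR3, a co-receptor of TGF-beta, had 0.99 and PCGF2, a Polycomb subunit, 1.55. RNF145, a ubiquitin ligase gene, had 2.63, and LRRFIP1 had 2.71. No peak matched both miR-18 and the miR-17 family, whose seeds differ by a single base, and none matched both miR-18 and miR-25/92. Over all 24041 peaks, 716 had a miR-17 family seed and 430 a miR-25/92 seed, so few shared peaks would be looked for among 211. Of the 50 listed families, only 22 others shared any peak with miR-18, so the lack was not particular to these mates. On the level of genes the overlap was wider: 78 of the 198 genes (39.4%) also had a peak, the same or another, with a miR-17, miR-19 or miR-25/92 seed, against 21.9% of all genes. Genes with a miR-18 peak had a median of 4 peaks and all genes a median of 2, and the part of this number in the overlap was not tested. The log ratios of miR-18 peaks had a median of 1.51 in the genes with such a mate (87 peaks) and 1.31 in the others (124 peaks). The share above 0 had the opposite order, with 70 of 87 (80.5%) and 109 of 124 (87.9%).

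The highest log ratio belonged to KIT, with 3.87 at a 3'UTR peak (hg19, chromosome 4, 55606365 to 55606405, log average -3.69) that also matches miR-19 and miR-130. HCFC2, a homolog of host cell factor, had 3.79 in its 3'UTR (chromosome 12, 104497951 to 104497985) with no other listed seed. ITSN2, an endocytic scaffold, had 3.68 at a CDS peak (chromosome 2, 24524891 to 24524924), while its other peak, which has no seed, had 1.21. BEX1 had 3.32, and the median of its 2 peaks was 3.28.

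VMA21, an assembly factor of the vacuolar proton pump, had 3.09 in its 3'UTR, against a median of 1.14 over 7 seedless 3'UTR peaks. COPG1, a subunit of the COPI vesicle coat, had 3.05 at its one peak, in CDS. ESCO2, which acetylates cohesin, had 2.99 at its one peak, and NAE1, a subunit of the NEDD8-activating enzyme, had 2.92. In NAE1 the seedless 3'UTR peak was nearly as high, at 2.42. Together with the TRAPPC10 peak these were among the 10 highest, 1 per gene, among miR-18 peaks in the upper 75% of log averages of the table.

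The lowest log ratio was that of POLR2D (chromosome 2, 128604856 to 128604925). PHF13, a chromatin reader, had -1.44 at a CDS peak and a gene median of -0.46 over 7 peaks. ANKRD52, a subunit of protein phosphatase 6, had -1.33 in its 3'UTR, and its 39 seedless 3'UTR peaks had a median of -0.29. C17orf101 had -1.32, and the median over its 10 peaks was -0.79. C22orf29 had -1.05 with a median of -0.91 over 17 peaks, and SPHK2, a sphingosine kinase, had -0.83 with a median of -0.58 over 8. Their seedless CDS peaks were higher, with medians of 0.05 and 0.28. BCL2L2-PABPN1, a readthrough transcript whose exons are shared with its parent genes, had -1.10, so the gene of origin of that signal is uncertain. PKMYT1, a kinase that inhibits CDK1, had -0.90 in CDS at one of the strongest peaks of the set (log average -0.96) and a gene median of 0.23 over 8 peaks. PRMT5, an arginine methyltransferase, had -0.81 at its one peak. The lincRNA model TCONS_00023383, already given above, completes the 10, and the median over its 11 peaks was 1.52.

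The strongest peak by log average, 0.26, was in CAMK2N1, an inhibitor of the kinase CaMKII, with a log ratio of 1.11 (3'UTR, chromosome 1, 20808933 to 20808968). BTG3, an antiproliferative protein, had a log average of -1.29 and a log ratio of 2.60 at its miR-18 peak, which is also the median of its 7 peaks. ZBTB47, a zinc finger gene, had 1.74 against a median of 0.13 over 12 seedless 3'UTR peaks. NR1H2, the oxysterol receptor LXR beta, had 2.01 against 2.14 at its seedless 3'UTR peak. With PKMYT1 these were the 5 strongest, and 4 of the 5 lay above 0, where 67.4% of all peaks in the strongest bin did.

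Genes named in the literature as miR-18a targets were covered in part. Of 40 such genes, 30 had a peak and 8 had a miR-18 peak, where 198 of all 6088 genes had one. The 8 genes were ATM, BTG3, CDK19, DICER1, FRS2, PHC3, SMAD2 and ZBTB4. All 9 of their miR-18 peaks lay above 0, with a median of 1.09. The 138 other peaks of the list had a median of 1.04, and 74.6% lay above 0. DICER1, the enzyme that cuts miRNA precursors, carried a CDS peak with 2.42 (chromosome 14, 95560394 to 95560470) and a 3'UTR peak with 1.96 (95552632 to 95552677), both of which match other families too. Its seedless peaks had medians of 1.26 in CDS and 1.35 in the 3'UTR. PHC3, a Polycomb protein, had 2.14. ZBTB4, a methyl-DNA binding repressor, had 1.09 against a median of 0.12 over 4 seedless 3'UTR peaks. The DNA damage kinase ATM had 0.79 at a weak 3'UTR peak (log average -7.45), below the 1.93 of its seedless peak. SMAD2, a signal transducer of TGF-beta, had 0.53 at its one peak (chromosome 18, 45368017 to 45368086), and CDK19, a Mediator kinase, had 0.79.

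The other lists held from 0 to 5 genes with a miR-18 peak, where 198 of all 6088 genes had one. Whether a list held more or less than that share was not tested. Of 31 TGF-beta pathway genes 23 had a peak and 2 a miR-18 peak, SMAD2 and TGFBR3. The 109 other peaks of that list had a median of 0.66. Of 25 DNA damage and cell cycle genes 23 had a peak and 5 a miR-18 peak. These were CDK2, the S phase kinase, with 1.15, CCND2, cyclin D2, with 1.10, ATM, CDK19 and WEE1. The 13 seedless 3'UTR peaks of CCND2 had a median of 1.01, and its 23 peaks in all ran from -0.47 to 2.63. Of 21 RNA-binding and stress granule genes 18 had a peak, and 2 had miR-18 peaks. ATXN2L, an ataxin 2 homolog found in stress granules, had 1.31 against a seedless 3'UTR median of 0.65. UBAP2L, a stress granule assembly factor, had -0.39 in CDS and -0.39 in the 3'UTR, where its seedless peaks had medians of 0.54 and 0.84. No miR-18 peak was listed in the 17 heat shock and chaperone genes or in the 7 steroid receptor and coregulator genes with a peak. At the share over all genes, lists this short may well hold none. Of 20 miRNA machinery symbols 13 had a peak, and DICER1 alone had miR-18 peaks.

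Of the 198 genes, 9 carried 2 miR-18 peaks each, and in 5 of these (CTNNB1, DDX18, FAM73A, SORBS3 and TMEM170B) the peaks overlapped, so that they count partly the same reads. CTNNB1, the Wnt effector beta-catenin, had 2.75 and 2.31 at overlapping CDS peaks (chromosome 3, 41275632 to 41275701), against a median of 0.31 over 5 seedless CDS peaks. TMEM170B had 1.08 at both of its peaks, with equal log averages. In genes with separate peaks the values could differ. BRWD1, a bromodomain protein, had 2.74 and 0.95 at 3'UTR peaks (chromosome 21, 40558017 to 40558046 and 40568157 to 40568202). MAP7D1, a microtubule-associated protein, had 0.55 in CDS and -0.67 in the 3'UTR, and its seedless peaks had medians of 0.99 and -0.80 in the same regions.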

How the data were processed

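Per the submitters' processing notes, reads were processed with Bowtie 0.12.8, TopHat and DESeq on hg19, with no role or order given. The sources used here name no peak caller or peak filter. The authors deposited 1 log average and 1 log ratio per peak over all replicates, and 0 columns hold single samples, so sequencing depth is unknown. Peak positions are printed as deposited, with no statement of whether a start is 0-based. Peaks on 1 strand sharing at least 1 nucleotide were taken to overlap.

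In the miRNA table, the authors' deposited signal values are counts divided by size factors and averaged per treatment. The authors also deposited the ratio of the means, its log2 value, and DESeq p-values and adjusted p-values, and whether replicates were paired in that test is not stated.

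Medians, counts and differences were computed with Python 3.11.15 and pandas 2.3.3, and the functions were tested on simulated data. The within-gene difference is the median log ratio of seed peaks minus that of peaks with no listed seed, per gene and region. Planned tests that need replicate values could not be run. Members and gene lists were chosen with earlier results of these data known. The text names the peaks with the 10 largest and the 10 smallest log ratios (1 per gene, log average at least -6.25, the upper 75% of the table), the 5 highest log averages, genes with 3 or more member peaks and members in the lists. A peak that this rule selects is not reported here. Genes with 2 member peaks, 5'UTR and noncoding exon peaks and examples of peaks shared with miR-19 fall outside that rule, and were chosen with their values in view. miRNA sequences were taken from RefSeq (GRCh38.p14), and those of all 3 named family members were found. Of markers of other cell types (blood, fibroblast, endothelium), 0 had a peak; of the kidney and HEK293 list, LHX1 had 2 peaks, NEFL 6, and PAX2, PAX8 and NEFM 0.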

Additional observations from a re-analysis of the deposited data

How the results depend on the processing

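No value changed sign in the 41 alternatives, though the 9 of the share above 0 are percentages and could not. Of the 41 values, 39 stayed within the 95% interval of the value reported (for the miRNA sum, the same second decimal). Most alternatives reuse the same peaks, so they are not independent checks. Splits to 5'UTRs or noncoding exons were not among them. There the within-gene differences were -0.46 and -0.43, over 3 pairs each, and the noncoding exon median was -0.22. The median log ratio of the miR-18 peaks ran from 1.25 (sole family) to 1.47 (3'UTR only) over 9 alternatives, and its difference from peaks with no listed seed from 0.67 (1 peak per gene) to 0.98. In 3'UTRs that difference ran from 0.56 (1 peak per gene) to 0.81. The share above 0 was 89.1% in 3'UTRs alone, just outside its interval of 79.4 to 89.0%, and was at least 82.4% otherwise. For miRNAs, miR-18b-5p alone gave a log2 fold change of 0.31 against 0.22 for the sum. The within-gene difference, itself added after the data had been seen, ran from 0.19 to 0.39 over 6 alternatives added with it. Also added then was leaving out the transcript with 5 member peaks (median 1.45). No paired analysis was possible because the tables hold no values of single replicates, and for the same reason no replicate could be left out. Intervals treat peaks as independent and are too narrow where peaks overlap, which 13 members do with a stronger peak.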
